A study of Mus musculus with 10 samples.

Results

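The genes described here encode 8 receptors that carry, or are used as targets to carry, large molecules from blood across the brain endothelium: Tfrc, Insr, Igf1r, Igf2r, Lepr, Fcgrt, Bsg and Scarb1. They were chosen by symbol, each matched 1 row of the deposited table of 14106 genes, and none was lost to the authors' filter on low values. RNA was sequenced in 10 libraries of brain endothelial cells (BECs), the CD31+CD45- cells that microbeads took from cortex of female mice aged 1 year. The 5 control libraries came from age-matched wild-type mice. The 5 APP/PS1 libraries came from mice of a transgenic model of Alzheimer's disease, which carry a mouse/human chimera of the amyloid precursor protein (Swedish mutation) and a mutant human presenilin 1 (PS1DE9). Both groups were on a C3H/BL6 background and received no treatment. The transgenes are expressed ubiquitously and not in endothelial cells alone, so effects within BECs and effects of the surrounding brain cannot be told apart in this design. Whether a library held 1 mouse or a pool is not stated in the sources used here, so each SD is the spread between libraries and may be partly technical.

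The blood-brain barrier keeps most proteins in the circulation, because its endothelial cells are sealed by tight junctions and take up little fluid. A protein can still cross by receptor-mediated transcytosis, in which it binds a receptor on the luminal membrane, is taken into clathrin-coated pits, passes through endosomes and is released on the brain side or returned to the blood. Iron-loaded transferrin, insulin, insulin-like growth factors (IGFs) and leptin are known cargoes, and antibodies to several of these receptors are used to shuttle drugs into the brain.

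Values are log2 CPM after the authors' correction for batch. They are counts scaled to an effective size of their library, near but not equal to its total, and put on a log2 scale. The total behind a library ranged from 22993426 to 126686149 adjusted counts in controls and from 22371766 to 114525432 in APP/PS1, and it was lowest for replicate 1 in both groups. Each replicate number paired 1 control with 1 APP/PS1 library of the same batch, and the correction left the mean of a pair almost equal between pairs. In the median gene that mean had an SD of 0.00353 log2 units over pairs, while the deviation of a library from it had an SD of 0.0863. The 10 values of a gene therefore hold 5 independent differences, which are given below as APP/PS1 minus control. A library that is high in 1 group has a partner that is low in the other. The SD of a group thus largely restates the spread of the pair differences and is not an independent spread within that group. All 14 endothelial markers were measured in all libraries, with a summed level between 23195 and 24298 CPM in controls and between 24380 and 25659 CPM in APP/PS1. The sum differed by 0.08, 0.005, 0.15, 0.07 and 0.02 log2 units in pairs 1 to 5, so it was almost equal in pair 2. With pair means almost equal, separate ranges of a marker sum, here and below, largely restate a common sign over the pairs. Of the 14 endothelial markers, 11 had higher and 3 lower estimates in APP/PS1, with a median log2 fold change of 0.08. In bulk RNA, fewer cells of a type and less RNA per cell cannot be told apart.

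None of the 8 receptors differed between APP/PS1 and control BECs at an adjusted p under 0.05 in the linear model of limma with the pairs as a block (percent of all genes called 0%), and none had an unadjusted p under 0.05, which 8.03% of all genes had. Without the block, Tfrc, Igf1r, Fcgrt and Scarb1 had unadjusted p values from limma of 0.0288, 0.0119, 0.0347 and 0.0138, and none passed the adjustment. The estimates were 5 higher and 3 lower in APP/PS1, with a median log2 fold change of 0.04 against −0.00 over all genes. Their median absolute log2 fold change was 0.0643, and that of all genes was 0.0640. Tfrc and Igf1r had the highest estimates, 0.22 and 0.21, and Fcgrt had the lowest, −0.07. Igf1r and Scarb1 were higher in APP/PS1 in all 5 pairs, a pattern seen in 2.99% of all genes, and Fcgrt was lower in all 5 pairs, as were 5% of all genes. In these 3 receptors the values of the groups did not overlap, as in 7.88% of all genes. Because the correction left pair means almost equal, this largely restates the common sign over the 5 pairs and is no further result.

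**Figure D1:**
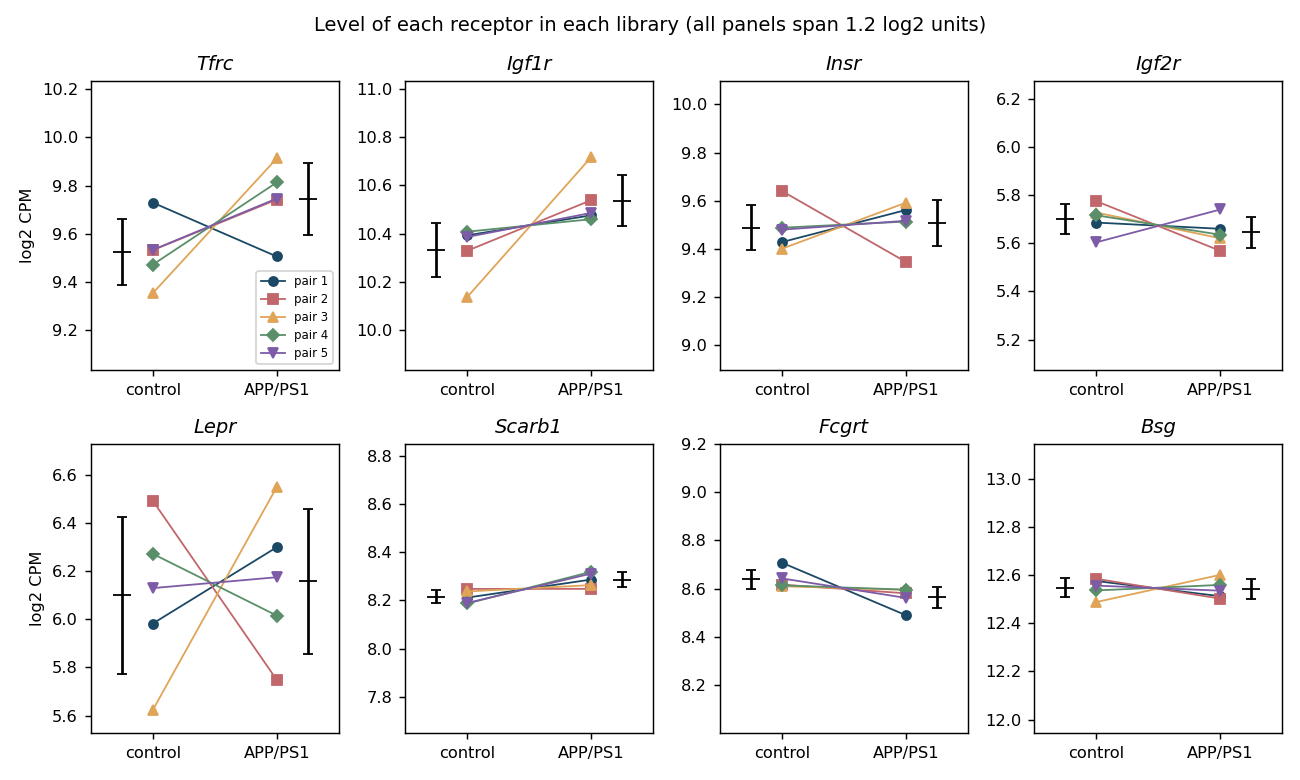
Level of each receptor in log2 CPM (y axis) in the 5 control and 5 APP/PS1 libraries (x axis), where a coloured line joins the libraries of a pair and black bars are the group mean ± SD. Every panel spans the same number of log2 units, so that the wide, crossing lines of Lepr can be set against the flat lines of Bsg, Fcgrt and Scarb1.

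Tfrc encodes the transferrin receptor, the main entry route for iron into BECs and the receptor used most for antibody shuttles. The gene lies at chr16:32608920-32632794 on the plus strand of GRCm38, the assembly also called mm10. Its messenger RNA is controlled by iron through iron-responsive elements (IREs), short hairpins that iron regulatory proteins bind when iron is scarce. Bound IREs in the 3′ UTR protect the Tfrc message from decay, whereas a bound IRE in the 5′ UTR blocks translation of the ferritin chains Fth1 and Ftl1 and of the iron exporter ferroportin (Slc40a1). They are shown because a level of Tfrc RNA is partly a readout of iron. The sequences were read from the transcripts of the GENCODE annotation of GRCm38, and the capitals mark the 6-base loop.
Tfrc, 3′ UTR, chr16:32631218-32631247: taattatcggaagCAGTGCcttccataatt
Tfrc, 3′ UTR, chr16:32631597-32631626: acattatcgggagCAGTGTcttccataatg
Tfrc, 3′ UTR, chr16:32631662-32631691: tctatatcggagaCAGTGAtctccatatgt
Tfrc, 3′ UTR, chr16:32631709-32631738: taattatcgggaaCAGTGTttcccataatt
Fth1, 5′ UTR, chr19:9982731-9982760: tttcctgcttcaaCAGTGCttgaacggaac
Ftl1, 5′ UTR, chr7:45459779-45459808, minus strand: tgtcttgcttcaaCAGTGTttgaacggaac
Slc40a1, 5′ UTR, chr1:45925465-45925494, minus strand: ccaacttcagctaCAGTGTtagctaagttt
The search asked for a C, 5 stem bases, the loop CAGTGN, and 5 bases that pair with the first 5, with G-U pairs allowed, on the transcript strand. These letters occur in 294 of 21901 protein-coding genes, or 1.34%. Tfrc held 4 of them, and the other 7 receptors and the iron importer Slc11a2 held 0. A match is a description of the letters and not a measured binding site. The search allowed no unpaired base within the 5 stem pairs, so a count of 0 does not show that a gene lacks an IRE.

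Tfrc was 9.73, 9.53, 9.35, 9.47 and 9.53 log2 CPM in control replicates 1 to 5. In APP/PS1 replicates 1 to 5 it was 9.51, 9.74, 9.91, 9.81 and 9.75. Replicate 1 of the APP/PS1 group was the lowest of its group and lay below 3 of the 5 controls. That its partner was the highest control follows from the almost equal pair means. The group means were 9.52 ± 0.14 and 9.74 ± 0.15 log2 CPM (SD, n = 5 each). This was a log2 fold change of 0.22 with a standard error of 0.113, a 1.16-fold level with a 95% interval from 0.96 to 1.41, and an adjusted p of 0.733 from limma. Within pairs the differences were −0.22, 0.21, 0.56, 0.34 and 0.21, higher in 4 of 5 pairs, with a two-sided exact sign-flip p of 0.25. Leaving out pair 1 gave a log2 fold change of 0.33, and leaving out pair 3 gave 0.14. On the scale of CPM, Tfrc lay between 654 and 849 in controls and between 727 and 964 in APP/PS1.

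Other genes of iron handling were taken from a list of 18 symbols, of which 15 were measured. At an adjusted p under 0.05, limma called 0 of them, 12 had a lower and 3 a higher estimate in APP/PS1, and the median log2 fold change was −0.05. Hfe binds the transferrin receptor and competes with transferrin. It was the only one of the 15 with an unadjusted p under 0.05, against 8.03% of all genes. Its log2 fold change was −0.12 ± 0.0441 (SE, limma adjusted p = 0.594), and it was lower in all 5 pairs, as were 5% of all genes. Ferritin heavy chain Fth1 and the ferroxidase Cp had the highest levels of the list in log2 CPM, which is not scaled to length, at 9.13 and 9.11. Fth1 had a log2 fold change of −0.13 and Cp of −0.16, each lower in 4 of 5 pairs, with adjusted p values of 0.732 and 0.733 from limma. The other genes with the IRE letters printed above gave 0.02 for Ftl1 and −0.07 for Slc40a1, with adjusted p values from limma of 0.966 and 0.918. Iron regulatory proteins Aco1 and Ireb2 gave −0.05 and 0.02. Steap1, Steap2 and transferrin itself, under Tf or its mouse symbol Trf, had no row in the table used here.

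Tfrc is also a marker of capillary endothelium, and of the 5 other capillary markers listed, 4 had higher estimates and 1 a lower one. Without Tfrc, the summed level of the 5 other markers (Mfsd2a, Rgcc, Car4, Slc16a1 and Cxcl12) was between 4119 and 4612 CPM in controls and between 5004 and 5611 CPM in APP/PS1. Their summed differences were 0.17, 0.12, 0.45, 0.12 and 0.25 log2 units in pairs 1 to 5, a sum that Cxcl12 weighs most in. In pair 1, where Tfrc was lower, Mfsd2a, Rgcc and Car4 also had differences below 0 (−0.07, −0.35 and −0.54), and Cxcl12 and Slc16a1 had differences of 0.29 and 0.22. Car4 was lower in 3 of 5 pairs, Rgcc in 2 and Mfsd2a in 1. Cxcl12, a chemokine and the highest of them in log2 CPM, differed by 0.26 log2 units (limma adjusted p = 0.569), higher in all 5 pairs. All 7 venous markers had lower estimates, with sums from 4740 to 5990 CPM in controls and from 3845 to 4889 CPM in APP/PS1. The 7 arterial markers summed to between 1510 and 1947 CPM in controls and between 1628 and 2073 CPM in APP/PS1. The part of vessel type in the Tfrc values was not tested.

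Igf1r, Insr and Igf2r bind the insulin family. Igf1r and Insr are tyrosine kinases of the same family that bind IGFs and insulin and signal through insulin receptor substrates. Igf2r is the cation-independent mannose 6-phosphate receptor, which takes IGF2 and lysosomal enzymes to lysosomes and has no kinase.

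Igf1r, at chr7:67952827-68233668 on the plus strand, was 10.39, 10.33, 10.14, 10.41 and 10.39 log2 CPM in control replicates 1 to 5. The APP/PS1 replicates had 10.48, 10.54, 10.72, 10.46 and 10.49. Every APP/PS1 library was above every control library, by the widest margin in pair 3. The means were 10.33 ± 0.11 and 10.54 ± 0.11 (SD, n = 5 each). They give a log2 fold change of 0.21 with a standard error of 0.0899 and an adjusted p of 0.665 from limma. As a fold this was 1.15, with a 95% interval from 0.988 to 1.34. The differences were 0.08, 0.21, 0.58, 0.05 and 0.10 in pairs 1 to 5, with a two-sided exact sign-flip p of 0.0625, the smallest that 5 pairs can give. Leaving out pair 3 brought the log2 fold change to 0.11.

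Insr, at chr8:3122061-3279617 on the minus strand, was 9.43, 9.64, 9.40, 9.49 and 9.48 log2 CPM in controls and 9.56, 9.35, 9.59, 9.51 and 9.52 in APP/PS1. Pair 2 stood opposite to the others, with a difference of −0.29, while the other pairs gave 0.13, 0.19, 0.03 and 0.04. The log2 fold change was 0.02 ± 0.0798 (SE, limma adjusted p = 0.97), and the interval of the fold ran from 0.884 to 1.16. Rescaling each library to the same total CPM shifted all genes alike, their median to −0.04, and with that shift the estimate was −0.02.

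Igf2r, at chr17:12682406-12769664 on the minus strand, was the lowest of the 3 in log2 CPM and per length, at 5.69, 5.77, 5.73, 5.72 and 5.60 log2 CPM in controls and 5.66, 5.57, 5.62, 5.64 and 5.74 in APP/PS1. It was lower in APP/PS1 in 4 of 5 pairs and higher in pair 5. The log2 fold change was −0.06 ± 0.0608 (SE, limma adjusted p = 0.87), with an interval of the fold from 0.867 to 1.07. The antisense gene Airn crosses the body of Igf2r but shares no exon bases with it. In the annotation, no exon of any of the 8 receptors shared bases with an exon of another gene.

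Lepr encodes the leptin receptor, a cytokine receptor that signals through Jak2 and Stat3 and brings the fat hormone leptin to the brain. The gene is at chr4:101717404-101815352 on the plus strand. Control libraries had 5.98, 6.49, 5.62, 6.27 and 6.13 log2 CPM in replicates 1 to 5. APP/PS1 libraries had 6.30, 5.75, 6.55, 6.02 and 6.17. High and low values occurred in both groups, with pair 2 much lower and pair 3 much higher in APP/PS1. The differences were 0.32, −0.74, 0.93, −0.26 and 0.05 log2 units, higher in 3 of 5 pairs. The mean was 6.10 ± 0.33 in controls and 6.16 ± 0.30 in APP/PS1 (SD, n = 5 each), or a log2 fold change of 0.06 ± 0.235 (SE, limma adjusted p = 0.968) whose interval as a fold ran from 0.696 to 1.56. This was the widest interval of the 8, and differences within it were not detectable here. Its SD of 0.625 over the pair differences was at the 99.3rd percentile among the 1000 genes nearest in level and at the 92.3rd percentile of all genes.

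**Figure D2:**
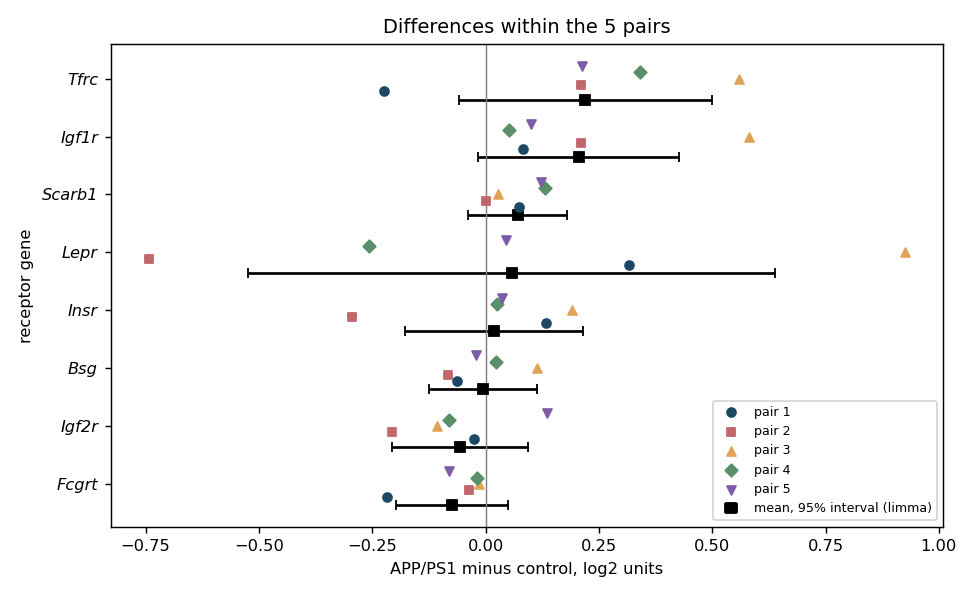
Differences within the 5 pairs (coloured symbols) and the mean with its 95% interval from limma (black squares and bars), as APP/PS1 minus control in log2 units (x axis), for the 8 receptors (y axis). All 8 intervals include 0, and the pair differences of Lepr run from −0.74 to 0.93.

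Vessel and mural markers also varied between pairs. Venous sums differed by −0.38, −0.64, −0.43, 0.04 and 0.04 log2 units in pairs 1 to 5, and arterial sums by 0.39, −0.26, −0.02, 0.46 and −0.09. Mural markers, which mark pericytes and smooth muscle, differed by −1.69, −0.32, −0.42, −1.36 and 0.01, with sums from 619 to 1042 CPM in controls and from 323 to 623 CPM in APP/PS1. Of the 10 mural markers, 10 were lower and 9 had an unadjusted p under 0.05, against 8.03% of all genes. Neuron markers (4 of 8 measured, with Rbfox3, Syt1, Tubb3 and Nefl not in the table) summed to between 8.81 and 10.9 CPM in controls and between 6.10 and 7.94 CPM in APP/PS1. All 4 had lower estimates, and the sum was lower in all 5 pairs. Microglia and leukocyte markers (7 of 8) summed to at most 17.9 CPM in either group, with 3 higher and 4 lower. Oligodendrocyte markers (8 of 9) ran from 37.9 to 272 CPM in controls and from 31.5 to 139 CPM in APP/PS1. All 8 had lower estimates, 5 with an unadjusted p under 0.05 from limma. Their sum differed by −3.11, 1.87, −2.21, −2.33 and −2.57 log2 units in pairs 1 to 5. Choroid plexus and ependyma markers (4 of 8) ran from 42.3 to 81.0 CPM in controls and from 15.8 to 40.8 CPM in APP/PS1. All 4 had lower estimates and an unadjusted p under 0.05 from limma. Astrocyte sums (7 of 7 markers) were 169 to 207 CPM in controls and 171 to 212 in APP/PS1, mostly from Gja1, which gave a log2 fold change of 0.27. The other 6 astrocyte markers had lower estimates, and the median of the list was −0.86. Erythroid sums (4 of 7) were 29.4 to 241 and 14.3 to 153 CPM, and fibroblast sums (4 of 6) 15.2 to 20.6 and 10.2 to 14.4. All 4 measured markers of either list had lower estimates. The part of these vessel and cell types in the receptor values was not tested.

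**Figure D3:**
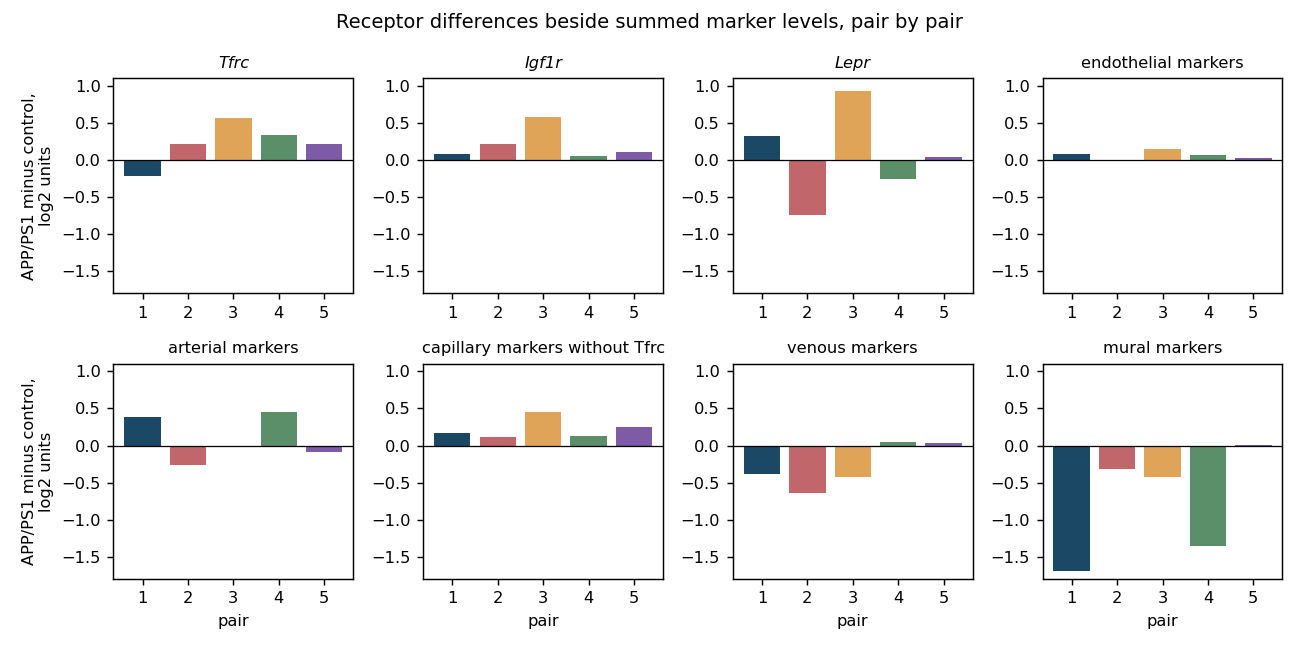
Difference between the APP/PS1 and the control library of each pair (y axis, log2 units) against pair number (x axis) for Tfrc, Igf1r and Lepr and for the summed CPM of the endothelial, arterial, capillary (without Tfrc), venous and mural marker lists. Mural sums were lower in APP/PS1 by 1.69 and 1.36 log2 units in pairs 1 and 4, endothelial sums differed by at most 0.15, and Tfrc, Igf1r, Lepr and the capillary sum were each highest in pair 3.

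Signalling genes of the insulin, IGF and leptin receptors were measured for 25 of 26 listed symbols. Limma called 0 of them at an adjusted p under 0.05, and 15 had higher and 10 lower estimates, with a median log2 fold change of 0.03. Irs2, an insulin receptor substrate, was the only one of the 25 with an unadjusted p under 0.05, against 8.03% of all genes. It was at 3.18 ± 0.20 log2 CPM in controls and 2.69 ± 0.22 in APP/PS1 (SD, n = 5 each). Irs2 was lower in 4 of 5 pairs (log2 fold change −0.48, limma adjusted p = 0.569). Its differences were −1.03, −0.35, −0.39, −0.73 and 0.08 in pairs 1 to 5, where mural sums differed by −1.69, −0.32, −0.42, −1.36 and 0.01. The part of mural cells in the Irs2 values was not tested. Highest in log2 CPM were Igfbp7, an IGF-binding protein of endothelium, at 9.37 log2 CPM, and Socs3, the feedback inhibitor induced by Stat3, at 9.17. Igfbp7 gave a log2 fold change of 0.05 and Socs3 of 0.01. In pairs 1 to 5, Socs3 had differences of −0.15, −0.54, −0.10, 0.62 and 0.23. Those of Lepr were 0.32, −0.74, 0.93, −0.26 and 0.05.

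Fcgrt encodes the neonatal Fc receptor, which binds IgG and albumin in acidic endosomes and returns them to the surface, and is held to move IgG from brain to blood. The gene is at chr7:45092990-45103851 on the minus strand. In controls it was 8.71, 8.62, 8.61, 8.61 and 8.64 log2 CPM, and in APP/PS1 8.49, 8.58, 8.59, 8.60 and 8.56. All APP/PS1 libraries lay below all controls, but by 0.01 and 0.02 log2 units in pairs 3 and 4. The largest difference was −0.22, in pair 1, the pair with the fewest counts. The log2 fold change was −0.07 ± 0.05 (SE, limma adjusted p = 0.815), a 0.95-fold level with an interval from 0.873 to 1.04, and −0.04 without pair 1. The two-sided exact sign-flip p was 0.0625, again the smallest possible.

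Scarb1 encodes the scavenger receptor class B type 1, which takes lipid from high-density lipoprotein (HDL) and, in endothelium, moves HDL and low-density lipoprotein across cells. It is at chr5:125277087-125341094 on the minus strand. Controls had 8.21, 8.25, 8.24, 8.19 and 8.19 log2 CPM, and APP/PS1 libraries had 8.29, 8.25, 8.26, 8.32 and 8.31. The groups did not overlap, although the libraries of pair 2 differed by less than 0.01, and the pairs were alike, with an SD of their differences at the 4.58th percentile of all genes. The log2 fold change was 0.07 ± 0.0442 (SE, limma adjusted p = 0.792), and the fold of 1.05 had an interval from 0.974 to 1.13. With each library scaled to the same total CPM, the estimate was 0.03 for Scarb1 and −0.11 for Fcgrt, since that scaling moved the median of all genes to −0.04.

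Bsg encodes basigin (CD147), a glycoprotein that brings monocarboxylate transporters to the membrane and is a target of shuttle antibodies. At chr10:79704491-79711969 on the plus strand, it was the highest of the 8 in CPM and per length, with 5977 CPM on average, at percentile 99.98 of all genes. Values were 12.58, 12.58, 12.49, 12.54 and 12.56 log2 CPM in controls and 12.51, 12.50, 12.60, 12.56 and 12.54 in APP/PS1. The groups covered almost the same range, and 2 pairs were higher and 3 lower in APP/PS1. The log2 fold change was −0.01 ± 0.0483 (SE, limma adjusted p = 0.984), with an interval of the fold from 0.917 to 1.08.

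Partners of these receptors were measured for 12 of 14 listed symbols, with 7 higher and 5 lower estimates, a median log2 fold change of 0.03 and 0 called at an adjusted p under 0.05 by limma. The lactate transporter Slc16a1, which depends on Bsg for its place in the membrane, was 9.79 log2 CPM and higher in all 5 pairs, with a log2 fold change of 0.15 (limma adjusted p = 0.637). Slc7a5, the large neutral amino acid transporter, was 10.83 log2 CPM with a log2 fold change of 0.16, higher in 4 of 5 pairs (limma adjusted p = 0.666). Lipg is the endothelial lipase that acts on HDL. It was the only one of the 12 with an unadjusted p under 0.05, against 8.03% of all genes. It was scarce, at 0.28 ± 0.15 log2 CPM in controls and −0.20 ± 0.18 in APP/PS1 (SD, n = 5 each), and lower in all 5 pairs, with a log2 fold change of −0.48 (limma adjusted p = 0.537) that the authors' prior count makes smaller than the change in counts.

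Levels of different genes can be compared only per length. After division by the exon length of each gene (log2 CPM per kb), the order was Bsg at 11.69, Fcgrt at 7.53, Tfrc at 7.01, Igf1r at 6.36, Insr at 5.72, Scarb1 at 5.16, Lepr at 3.31 and Igf2r at 2.45. Each receptor was above the next in 10 of 10 libraries, and the ranges of neighbours over the 10 libraries did not overlap. The closest were Fcgrt and Tfrc, with a mean gap of 0.52 and a lowest gap of 0.24 log2 units, and Lepr and Igf2r, at the low end, had a mean gap of 0.86 and a lowest gap of 0.30. Igf1r, with 16791 bases of exon against 6185 for Tfrc, was above Tfrc in log2 CPM and below it per kb. All 8 receptors were above the median gene of the table in log2 CPM and per kb. The lowest per kb were Lepr at percentile 67.7 and Igf2r at percentile 51.3 of all genes. Exon length here joins all annotated transcripts, so the order depends on which transcripts BECs use.

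**Figure D4:**
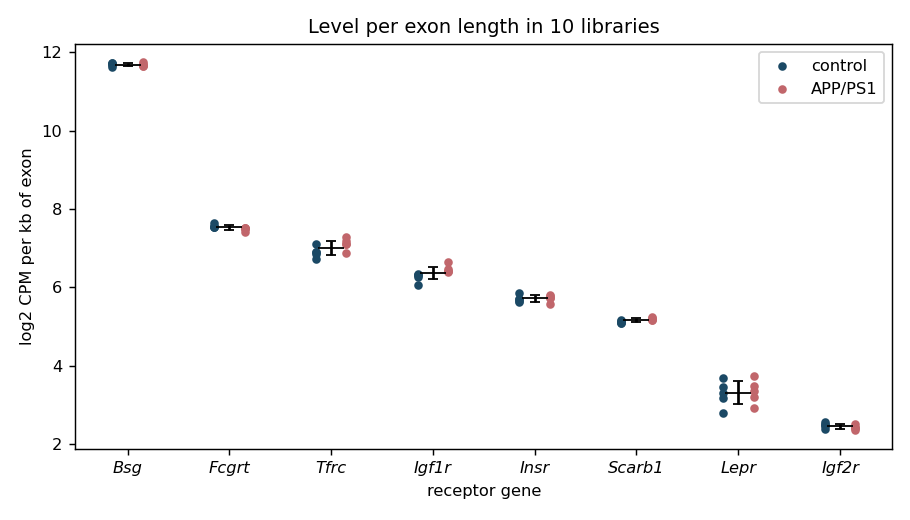
Level of each receptor (x axis) in log2 CPM per kb of exon (y axis) in 5 control and 5 APP/PS1 libraries, with the mean ± SD over 10 libraries. Bsg stands 4.16 log2 units above Fcgrt, and Lepr shows the widest spread, with an SD of 0.30.

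Other receptors and shuttle targets were measured for 12 of 15 listed symbols, with 6 higher and 6 lower, 0 called by limma at an adjusted p under 0.05, and a median log2 fold change of −0.00. An unadjusted p under 0.05 from limma was reached by 2 of the 12, Lrp1 and Vldlr, against 8.03% of all genes. Lrp1 is the low-density lipoprotein receptor-related protein that clears Aβ and binds apolipoprotein E. It was 5.13 ± 0.23 log2 CPM in controls and 4.57 ± 0.25 in APP/PS1 (SD, n = 5 each), or a log2 fold change of −0.55 (limma adjusted p = 0.569), lower in 4 of 5 pairs, with a difference of −1.18 in pair 1, the pair in which mural sums differed by −1.69. Pericytes and smooth muscle also express Lrp1, and the part of mural cells in this value was not tested. Vldlr, the very low-density lipoprotein receptor, was scarce at −0.25 log2 CPM, with a difference of −0.78 log2 units (limma adjusted p = 0.618). It was lower in all 5 pairs, as were 5% of all genes. Its differences were −2.13, −1.03, −0.29, −0.18 and −0.27 in pairs 1 to 5, largest in pair 1. The glucose transporter Slc2a1, at 12.76 log2 CPM, gave −0.06, and Slc3a2, the CD98 heavy chain that is also a shuttle target, gave 0.01 at 9.65 log2 CPM. Tfr2, Cd36 and Asgr1 had no row in the table used here.

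The machinery that takes receptors in and sorts them was measured almost in full. All 20 genes of the clathrin coat and early endosome were measured, 13 with higher and 7 with lower estimates, and the median log2 fold change was 0.03. Picalm, the clathrin assembly protein that takes part in the uptake of Lrp1 with Aβ, had the highest log2 CPM of the list. It was also the only one of the 20 with an unadjusted p under 0.05, against 8.03% of all genes. It was 9.48 ± 0.08 log2 CPM in controls and 9.67 ± 0.08 in APP/PS1 (SD, n = 5 each), or a log2 fold change of 0.19 ± 0.0719 (SE, limma adjusted p = 0.598), higher in 4 of 5 pairs. Clathrin heavy chain Cltc was at 9.37 log2 CPM and gave 0.05. Of 27 genes of recycling, retromer and mannose 6-phosphate sorting, 25 were measured, 13 higher and 12 lower, with a median of 0.00 and 0 at an unadjusted p under 0.05. Rab11a, the GTPase of recycling endosomes, gave 0.02, and Ehd4, which shapes endosomal tubules, gave 0.05. Limma called 0 genes of either list at an adjusted p under 0.05.

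**Figure D5:**
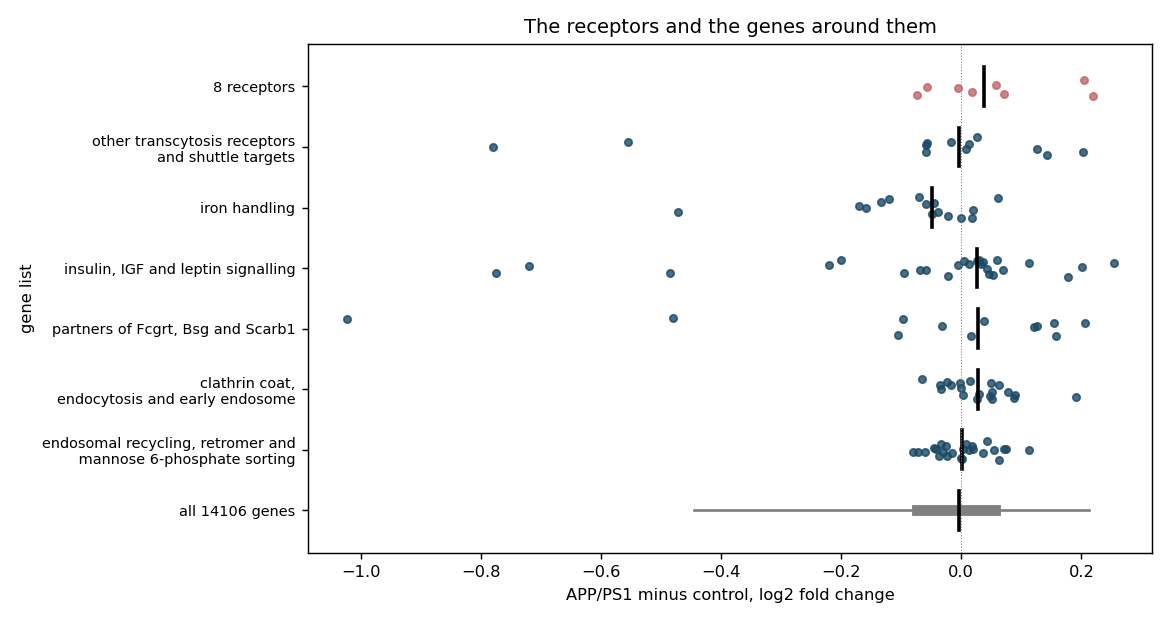
Log2 fold change of each gene (points, x axis, APP/PS1 minus control) in the 8 receptors and 6 lists of companion genes (y axis), with black ticks at the medians and, for all 14106 genes, a thick bar from the 25th to the 75th and a thin line from the 5th to the 95th percentile. The medians of the lists lay between −0.05 for iron handling and 0.04 for the receptors, and that of all genes at −0.00.

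The genes most like Igf1r and Tfrc over the 5 pairs were sought among 12189 genes with a mean of at least 1 log2 CPM, by the root mean square (RMS) distance between pair differences. For Igf1r they were Gm14584 at 0.0538, Trir at 0.0857 and Slc7a1, the cationic amino acid transporter, at 0.0941 log2 units, where the median gene was at 0.327. For Tfrc they were Gm5805 at 0.0683, Mfsd2a, the lipid transporter that holds down transcytosis in capillaries, at 0.113, and Gm13315 at 0.139, where the median gene was at 0.374. Gm14584, Gm5805 and Gm13315 are processed pseudogenes, whose reads can belong to a gene of similar sequence, so their values are uncertain. Mfsd2a was 8.50 ± 0.10 log2 CPM in controls and 8.68 ± 0.10 in APP/PS1 (SD, n = 5 each), with differences of −0.07, 0.09, 0.49, 0.20 and 0.22 in pairs 1 to 5. Its log2 fold change was 0.19 (limma adjusted p = 0.689). These genes were chosen for their likeness over the pairs, so the likeness itself is a description.

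The sign of the difference varied among the receptors within every pair. Of the 8, 4 were higher in APP/PS1 in pair 1, 3 in pair 2, 6 in pair 3, 5 in pair 4 and 6 in pair 5. The median difference over the 8 was 0.02, −0.06, 0.15, 0.02 and 0.07 log2 units. Over all genes the differences of a pair had an SD of 0.631 in pair 3 and between 0.340 and 0.542 in the others. Pair 3 held the highest difference for Tfrc, Igf1r, Insr, Lepr, Bsg and Fcgrt, and pair 2 the lowest for Insr, Igf2r, Lepr, Bsg and Scarb1.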

How the data were processed

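RNA of BECs was measured by bulk RNA sequencing in 5 control and 5 APP/PS1 libraries. By the paper's methods and the submitters' processing notes, the authors used STAR (mm10) for alignment and HTSeq for counts per gene, filtered weakly expressed genes, took log CPM with edgeR and corrected for batch with ComBat, with versions not given in the sources used here. The deposited values are log2 CPM. They convert back to whole numbers (tolerance 0.05), which correction of log CPM would not leave in general, so how the correction was made is not settled. These adjusted counts are not reads, so no counting error was given. Each library's deposited file equalled its column.

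Ensembl identifiers were matched to GENCODE M21 (14106 of 14106). R 4.3.3 and limma 3.58.1 (lmFit, eBayes with 1 prior variance) were used with genotype and replicate number as terms, which left 4 residual degrees of freedom, and Benjamini-Hochberg adjustment over 14106 genes. The 5 pairs come from the study's batch plot, whereas the labels give 4 batches. Pairing could not be checked by correlation because the correction makes the libraries of a pair mirror images. Exact sign-flip permutation tests over 5 pairs were two-sided. The fit was tested on simulated data. Named genes were the 8 receptors, genes of each pathway list with an unadjusted p under 0.05, and the 2 most abundant of each such list. The 3 genes nearest in pattern to the 2 receptors with the smallest p were also named. Of the marker lists, the most abundant gene was named for the capillary and astrocyte lists only. Ftl1, Slc40a1, Aco1 and Ireb2 were named after their values were seen. The capillary markers Rgcc and Car4 were also named outside these rules. The receptors and lists were chosen with earlier results of these data known. Alternatives were no block, 4 batches, eBayes with a trend, scaling to the same total CPM, median-of-ratios scaling, a pseudocount of 1, a mean of at least 1 log2 CPM, limma-voom on adjusted counts, a threshold of 0.10 and each replicate left out.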

Additional observations from a re-analysis of the deposited data

How the results depend on the processing

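No receptor was called by limma under any of the alternatives, at adjusted p values under 0.05 or 0.10. The count over all genes, 0 with the pairs as a block, was 648 with no replicate block, where the lowest adjusted p among the receptors was 0.109 for Igf1r (up to 0.995 under its other alternatives), and 1 with the 4 batches of the labels. Values already centred by pair have fewer independent differences than a model without the block assumes. Leaving out a replicate number gave between 0 and 5 genes, 5 without replicate 2 and 1 without replicate 5. Over 13 alternatives for each receptor, 97 of 104 log2 fold changes kept their direction and side of the threshold and 7 reversed. Among these, the value of −0.019 for Insr with each library scaled to the same total CPM follows from a shift of all genes alike by that scaling. An unadjusted p under 0.05 was also reached by Igf1r with 4 batches (0.0409) and with a pseudocount of 1 (0.0489) and by Tfrc without replicate 1 (0.00973), by limma. With a replicate left out, Insr ran from −0.025 to 0.10, Lepr from −0.16 to 0.26 and Bsg from −0.036 to 0.013. Tfrc, Igf1r, Igf2r, Fcgrt and Scarb1 kept their direction under all alternatives tried, with ranges over left-out replicates of 0.14 to 0.33, 0.11 to 0.24, −0.10 to −0.02, −0.09 to −0.04 and 0.06 to 0.09. The causes of the other shifts were not tested. Uncorrected reads were not used here, so the precision that depth gives each library is unknown.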
